A study of Mus musculus with 2 samples.

Results

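Sox6 nuclei with Tmem163 were selected from single-nucleus RNA profiles of mouse midbrain dopamine neurons by the UMIs (unique molecular identifiers, each counted as 1 RNA molecule) of 8 genes. A nucleus was a member when it had at least 500 detected features, at least 1 UMI of Sox6 and of Tmem163, 0 UMIs of Anxa1, Calb1 and Grin2c, and at most 1 UMI in the sum of Alk, Vcan and Tox. The selection gave 208 nuclei of the 12065 that passed the feature minimum. Of these, 132 of 6556 came from the male library and 76 of 5509 from the female library. The nuclei came from adult Dat-IRES-Cre, CAG-Sun1/sfGFP mice with no other treatment, where the transporter gene (Dat, Slc6a3) drives Cre and Cre turns on Sun1 fused to GFP in the nuclear envelope, and GFP-positive nuclei of the ventral midbrain were sorted. Cre labels any cell that has ever expressed the transporter, so the sort follows lineage and not present dopaminergic state. The male library pooled 2 mice and the female library 3 mice, so single animals could not be told apart, and sex, pool and library could not be told apart either. The libraries hold 21609454 and 19843000 UMIs in kept nuclei, with a median of 2730.5 and 3016 UMIs per nucleus. Members had a median of 3646.5 UMIs in the male library and 3663.5 in the female library. The 2 libraries shared 6 barcodes, and 0 members carried a shared barcode.

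Midbrain dopamine neurons make dopamine with tyrosine hydroxylase (Th), load it into vesicles and take it back through the dopamine transporter (Slc6a3). Sox6 is a transcription factor that marks much of the ventral substantia nigra pars compacta, where many of the neurons also hold the aldehyde dehydrogenase Aldh1a1. Tmem163 encodes a membrane protein that moves zinc out of the cytosol and sits on synaptic vesicles and endosomes. Alk, Vcan, Tox, Grin2c, Anxa1 and Calb1 are used to separate other groups of dopamine neurons, and the rule removed nuclei that held Grin2c, Anxa1 or Calb1 or at least 2 UMIs of Alk, Vcan and Tox. A single UMI of Alk, Vcan or Tox remained in 53 of 132 male and 24 of 76 female members.

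These promoters show the loci that the values below turn on: Tmem163, which chose the nuclei, Kcnk13, with the largest rise against the remaining Sox6 nuclei, and Hs6st3, with the smallest adjusted p among the falls. Each run is read 5′ to 3′ on the strand of the gene, from 250 bases before to 50 after the RefSeq start in GRCm38.p6. Capitals mark TCCCNNGGG, a core bound by EBF factors, and AACAAT, a core bound by SOX factors, searched on both strands.
Tmem163, chr1:127677972-127678271, minus strand: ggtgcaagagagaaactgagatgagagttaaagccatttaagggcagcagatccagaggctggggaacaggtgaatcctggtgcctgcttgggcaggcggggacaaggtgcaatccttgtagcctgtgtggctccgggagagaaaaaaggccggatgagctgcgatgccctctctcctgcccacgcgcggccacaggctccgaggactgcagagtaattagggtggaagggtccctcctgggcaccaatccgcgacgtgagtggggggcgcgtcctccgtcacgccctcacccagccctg
Kcnk13, chr12:99964249-99964548, plus strand: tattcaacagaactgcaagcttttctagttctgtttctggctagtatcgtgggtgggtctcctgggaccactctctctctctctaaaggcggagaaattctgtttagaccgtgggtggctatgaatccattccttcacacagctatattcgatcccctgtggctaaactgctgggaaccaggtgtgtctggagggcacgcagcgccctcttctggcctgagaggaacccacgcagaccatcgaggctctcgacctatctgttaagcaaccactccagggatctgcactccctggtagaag
Hs6st3, chr14:119138015-119138314, plus strand: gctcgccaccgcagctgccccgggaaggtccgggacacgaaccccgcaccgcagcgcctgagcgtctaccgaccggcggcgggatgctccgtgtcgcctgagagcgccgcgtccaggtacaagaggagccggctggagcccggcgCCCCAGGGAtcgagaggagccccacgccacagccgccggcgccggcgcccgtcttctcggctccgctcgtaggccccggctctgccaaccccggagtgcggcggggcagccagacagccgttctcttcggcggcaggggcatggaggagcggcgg
Hs6st3 held 1 EBF match, and neither core was present in the windows of Tmem163 and Kcnk13. Among all 32851 RefSeq promoters of this length, 6.56% held the EBF core and 10.7% the SOX core. The genes with the largest rises in the first or second comparison below had 17 promoters in the table for 12 of 22 genes, with 0 EBF and 1 SOX match. Those with the largest falls had 28 promoters for 18 of 22 genes, with 5 EBF and 2 SOX matches; the 5 EBF promoters belong to 4 genes, since 2 of them are overlapping windows of Ifitm10. A match is a run of letters and not a site of binding.

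The selection took a small share of the Sox6 nuclei. Sox6 was detected in 3110 male and 2818 female nuclei, and members were 4.24% of them (exact 95% interval 3.56 to 5.01) in the male library and 2.70% (2.13 to 3.36) in the female library. These intervals cover counting error only. Nuclei with both genes made up 280 male and 259 female nuclei, and 47.1% and 29.3% of them were members. The sum of Alk, Vcan and Tox removed the most, 38.2% of male and 56.8% of female nuclei with both genes, Grin2c removed 12.1% and 24.3%, Calb1 15% and 16.6%, and Anxa1 6.79% and 7.34%, with some nuclei removed by several conditions. A single Tmem163 UMI put 114 of 132 male and 67 of 76 female members in the set. A single Sox6 UMI did so for 50% of male and 56.6% of female members, against 39.9% and 33.8% of the remaining Sox6 nuclei having 1 Sox6 UMI. These values describe the rule and were not tested.

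The shares of nuclei with a Tmem163 UMI were also read at equal depth in nuclei with and without a Sox6 UMI. Both genes belong to the rule, so these shares are a description with no test, and their intervals cover only the counting error over nuclei of 2 pooled libraries. Both genes were read after thinning, so that an expected 1609 of 6484 male and 1456 of 5348 female nuclei counted as having Sox6, and the nuclei without include Sox6 nuclei whose Sox6 UMIs were thinned away. After thinning each nucleus to 1000 UMIs (72 male and 161 female nuclei were shallower and left out), the expected share with a Tmem163 UMI was 2.31% (exact 95% interval 1.62 to 3.16) among male nuclei with Sox6 and 3.88% (3.35 to 4.46) among those without. In the female library the shares were 2.12% (1.45 to 3.01) and 4.38% (3.75 to 5.06). The number of nuclei with both genes was 0.660 and 0.563 of that expected from their separate shares, as the plot of thinned shares shows. Without thinning, 9.0% and 9.19% of Sox6 nuclei had a Tmem163 UMI against 10.0% and 12.4% of those without, the nuclei with Sox6 being deeper (median 3387 and 3746 UMIs) than those without (2280.5 and 2437). The lowest share over clusters, which bounds the free RNA of the suspension, was 0.303% (male) and 0.600% (female) at the thinned depth, in a cluster of median depth 2824 and 3327 UMIs. For Sox6 the lowest share over clusters at that depth was 3.64% (male) and 6.0% (female), in a cluster of median depth 2873.5 and 2919.5 UMIs. These shares are upper bounds, since nuclei of that cluster may hold Sox6 themselves. A single Sox6 UMI may thus come from free RNA, and how many did was not measured.

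**Figure D1:**
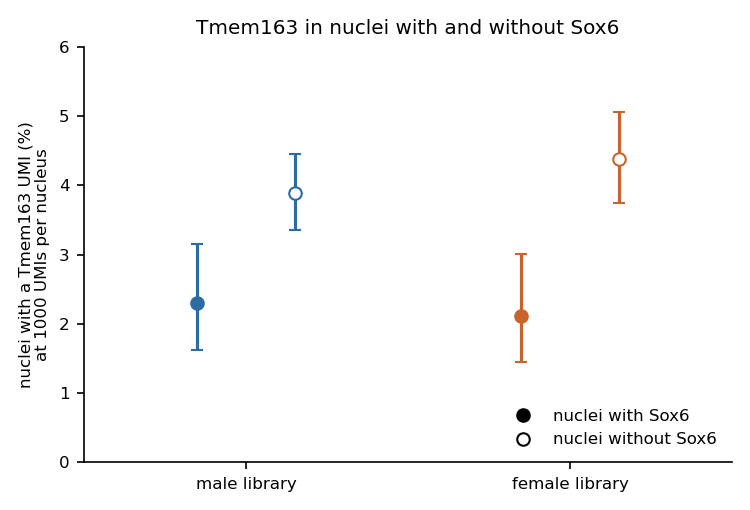
Share of nuclei with at least 1 Tmem163 UMI (y axis, percent, expected after thinning every nucleus to 1000 UMIs) for nuclei with a Sox6 UMI (filled) and without one (open) after the same thinning in the male and female libraries, with exact 95% intervals that cover counting error only. In both libraries the filled point lies below the open point, at 2.31% against 3.88% (male) and 2.12% against 4.38% (female).

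Members carried the dopaminergic transcripts of the label. Th was detected in 64.4% of male and 61.8% of female members, and Slc6a3 in 78.8% and 85.5%. In the same order, the depth-matched remaining Sox6 nuclei had Th in 66.1% and 79.5% and Slc6a3 in 83.9% and 89.7%. Of 14 genes of dopamine synthesis, storage, reuptake and its autoreceptor, 11 were tested against the remaining Sox6 nuclei, 0 rose and 1 fell, Drd2, the dopamine autoreceptor, beside 1.16% of all genes tested higher and 0.925% lower. Drd2 was at 2.70 and 2.51 UMIs per 10000 UMIs in male and female members and at 3.43 in the remaining nuclei of each library (log2 fold change -0.39 ± 0.11 SE, adjusted p = 0.0193, edgeR). Th had a log2 fold change of -0.23 ± 0.10 (adjusted p = 0.395, edgeR) and Slc6a3 of -0.03 ± 0.08 (adjusted p = 0.982). The lower Th level lay in the female library, at 2.98 UMIs per 10000 UMIs against 4.42, with 3.12 against 3.11 in the male library. The median log2 fold change of the 11 genes was -0.06, beside 0.00 over all genes tested.

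Transcripts that define other cell types were near 0 in members. Of 10 astrocyte markers, 7 were at 0 in male and 8 in female members, Aqp4, Gja1, Gfap and Aldh1l1 among them, and Slc1a2 held 50 of 55 and 39 of 41 UMIs. Of 10 microglial markers, 7 were at 0 in each library, with Csf1r, C1qa and Tmem119 at 0 in both, and the list summed to 28 and 20 UMIs. Of 13 oligodendrocyte and precursor markers, 5 and 7 were at 0, with Pdgfra and Cspg4 at 0 in both. The summed oligodendrocyte level was 1.02 and 0.789 UMIs per 10000 UMIs in members and 1.05 and 0.683 in the matched remaining Sox6 nuclei. Of 9 endothelial and pericyte markers 7 were at 0 in each library, and the list summed to 9 and 3 UMIs. Of 4 GABAergic markers Gad1 and Slc32a1 were at 0 in both, and the list summed to 0.689 and 0.686 UMIs per 10000 UMIs in members against 0.544 and 0.594. The list of glutamatergic, cholinergic and serotonergic markers summed to 7 UMIs in each library, 5 of them Slc17a6, the vesicular glutamate transporter, and to 0.127 and 0.240 UMIs per 10000 UMIs against 0.0865 and 0.0273 in the matched remaining Sox6 nuclei. Slc17a6 was detected in 3.79% (exact 95% interval 1.24 to 8.62) of male and 6.58% (2.17 to 14.7) of female members, against 1.82% (0.943 to 3.15) and 0.789% (0.163 to 2.29) of the matched nuclei. Few of these markers were abundant enough to test: against the remaining Sox6 nuclei 3 oligodendrocyte, 1 astrocyte, 1 microglial, 1 endothelial, 2 GABAergic and 0 of the glutamatergic, cholinergic and serotonergic markers, so that Slc17a6 was in no test. The part of these cells in the differences below was not tested. Scrublet called 0 male and 1 female nuclei doublets, too few for a working call, so the 6% of nuclei with the highest scores were left out as an alternative; they held 16.7% of male members and 3.95% of female members against 8.83% and 8.79% of the remaining Sox6 nuclei.

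The first comparison asked how members differ from the remaining Sox6 nuclei of the same depth. Members held more of the acid-sensing channel Asic2, the GABA-A subunit Gabrg3, the calcium-binding Necab1 and the transcription factors Bcl11b and Ebf2, and less of the heparan sulfate enzyme Hs6st3, of Aldh1a1, Lmo3, Ndnf and Ebf1. UMIs were summed per library over the 132 and 76 members and over 660 and 380 matched nuclei, and the 4 sums were fitted with edgeR with the library as a block. Of 9192 genes tested, 107 were higher (1.16%) and 85 lower (0.925%) at an adjusted p under 0.05, and all 192 had the same sign in each library. The fit had 1 residual degree of freedom per gene and took a common dispersion of 0.00118 for all genes. In this and the 2 later comparisons the spread was pooled over genes, and a gene's own spread between the 2 libraries got no weight. The p-values thus do not measure how well the libraries agree on a gene, nor the spread between animals. DESeq2 called 18 genes higher and 20 lower, and edgeR without the block 13 and 8, all among the 192. Across the 4048 genes with at least 200 UMIs, the log2 differences of the 2 libraries correlated with r = 0.28, a description across genes, which are not independent.

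Asic2 and Gabrg3 led the rises by evidence. Asic2 (chr11:80880169-81968457, minus strand, mm10) was at 11.2 and 10.4 UMIs per 10000 UMIs in male and female members and at 3.82 and 3.04 in the matched remaining Sox6 nuclei, a 3.08-fold difference (log2 fold change 1.63 ± 0.08, adjusted p = 8.4e-91, edgeR). Gabrg3 (chr7:56716465-57387188, minus strand) was at 5.39 and 5.66 in members and 1.97 and 1.96 in the others (1.48 ± 0.10, adjusted p = 1.57e-48). For both genes the members' values lay above both values of the remaining nuclei. Without the 6% of nuclei with the highest doublet scores, the log2 fold change was 1.95 for Asic2 and 1.65 for Gabrg3. Among members with at least 2 Tmem163 UMIs, 18 male and 9 female nuclei, it was 2.15 and 1.62, and only 4 genes were called there, Asic2, Gabrg3 and Kcnip4 among them. Both genes also passed with DESeq2 and without the block.

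Several rarer transcripts rose as well. Kcnk13, a background potassium channel, gave 24 and 11 UMIs in members and 25 and 10 in the 5 times larger matched sets (log2 fold change 2.31 ± 0.38, adjusted p = 4.03e-07, edgeR). Ebf2, a helix-loop-helix factor of the Ebf family, gave 27 and 11 UMIs against 36 and 17 (1.83 ± 0.34, adjusted p = 1.53e-05). Bcl11b, a zinc finger factor, gave 25 and 23 UMIs against 57 and 33 (1.41 ± 0.29, adjusted p = 0.000122). DESeq2 gave no adjusted p for Kcnk13, Ebf2 or Bcl11b, and the adjusted p of Ebf2 and Bcl11b without the block was 0.0518 and 0.155. Sulf1, which removes 6-O-sulfate from heparan sulfate, was at 0.580 and 0.583 UMIs per 10000 UMIs against 0.173 and 0.164 (1.76 ± 0.30). Necab1 was at 1.98 and 1.96 against 0.761 and 0.547 (1.52 ± 0.16), and Epb41l3, a linker of the membrane cytoskeleton, at 2.01 and 1.61 against 0.869 and 0.513 (1.33 ± 0.16). Adam12, a membrane metalloprotease, Sntb1, a syntrophin, and Sema3f, a secreted semaphorin, also rose, by 1.57 ± 0.30, 1.57 ± 0.23 and 1.68 ± 0.42 on the log2 scale. Sntb1 was at 0.816 against 0.350 UMIs per 10000 UMIs in the male library and 1.06 against 0.219 in the female library. With 0.1 added to each level, its log2 difference was 1.03 in the first and 1.87 in the second. Adam12 and Sntb1 were higher still in Tmem163 nuclei without Sox6, as the third comparison gives.

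Hs6st3 led the falls by evidence. Hs6st3, which adds 6-O-sulfate to heparan sulfate, was at 4.43 and 2.75 UMIs per 10000 UMIs in members and at 11.6 and 10.9 in the remaining Sox6 nuclei (log2 fold change -1.59 ± 0.09, adjusted p = 7.29e-73, edgeR). Aldh1a1 was at 0.726 and 1.06 against 2.09 and 2.44 (-1.40 ± 0.16, adjusted p = 1.89e-15). Lmo3, a LIM-domain cofactor, was at 1.69 and 1.41 against 3.89 and 3.77 (-1.29 ± 0.12, adjusted p = 1.35e-22). Members' values lay below those of the remaining nuclei in both libraries for all 3, and DESeq2 called all 3. Among members with at least 2 Tmem163 UMIs the log2 fold changes were -1.37, -1.42 and -0.97 and the calls were lost (adjusted p = 0.0735, 0.341 and 0.394, edgeR). Ndnf, a secreted neurotrophic factor, fell by 1.26 ± 0.21, Ebf1 by 1.21 ± 0.21, the sialyltransferase St6galnac5 by 1.14 ± 0.12 and the collagen Col11a1 by 1.00 ± 0.11 on the log2 scale. Vill, a villin-like protein, was at 0.20 and 0.343 against 0.534 and 0.944 (-1.44 ± 0.29). Chrna5, a nicotinic receptor subunit, gave 2 and 1 UMIs against 52 and 31, too few in members for a fold.

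**Figure D2:**
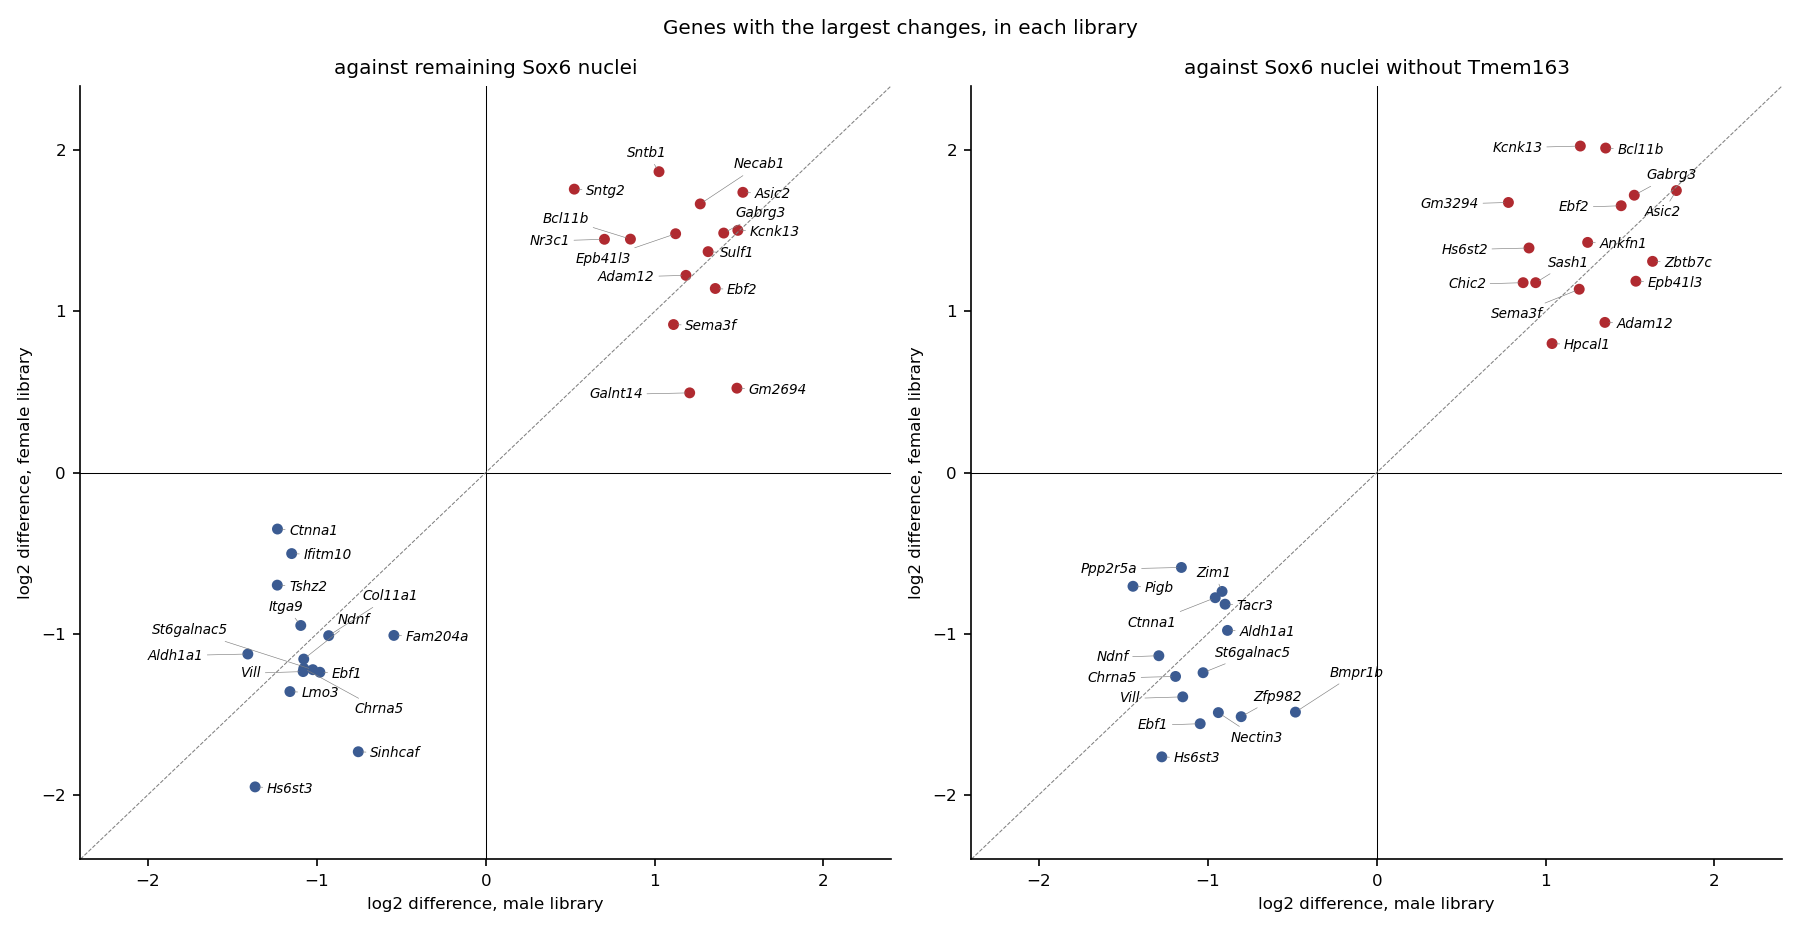
Log2 difference within the male library (x axis) and within the female library (y axis), from UMIs per 10000 UMIs plus 0.1, for the genes with the largest rises (red) and falls (blue) between members and depth-matched remaining Sox6 nuclei (left) or Sox6 nuclei without Tmem163 (right). The dashed line marks equal differences, and every gene shown lies at the upper right or lower left because the same sign in both libraries was required, with Asic2 at 1.52 and 1.74 and Hs6st3 at -1.37 and -1.95 on the left.

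The second comparison kept the other conditions of the rule equal, so that of these conditions only the Tmem163 UMI separated the sets. The level of Sox6 was not matched. Before depth matching it was 4.88 and 4.84 UMIs per 10000 UMIs in male and female members and 6.76 and 6.82 in Sox6 nuclei without Tmem163. The part of this difference in the values below was not tested. Members again held more Asic2, Gabrg3, Bcl11b, Ebf2 and Kcnk13 and less Hs6st3, Ebf1, Ndnf and Vill than Sox6 nuclei with 0 UMIs of Tmem163. It used 131 and 76 members and 262 and 152 matched nuclei, and the members are those of the first comparison, so the values stand side by side and are no repeat. Of 7094 genes, 109 were higher (1.54%) and 77 lower (1.09%), all 186 with the same sign in each library, and DESeq2 called 12 and 13. Without the 6% of highest doublet scores edgeR called 3 genes, Asic2 and Gabrg3 higher and Hs6st3 lower. That set was also smaller, with 109 male comparison nuclei for 109 members in place of 262 for 131, so the loss of calls cannot be told apart from the loss of nuclei. Asic2 was at 11.3 and 10.4 UMIs per 10000 UMIs in members and 3.24 and 3.02 in the others (1.79 ± 0.09), Gabrg3 at 5.50 and 5.66 against 1.84 and 1.65 (1.64 ± 0.12), and Hs6st3 at 4.36 and 2.75 against 10.7 and 9.57 (-1.47 ± 0.10). Bcl11b gave 25 and 23 UMIs against 13 and 7 (2.24 ± 0.38, adjusted p = 4.83e-07). Zbtb7c, a zinc finger factor, gave 33 and 13 UMIs against 14 and 7 (2.11 ± 0.38). Aldh1a1 differed less here than against all remaining Sox6 nuclei, at -1.01 ± 0.18, and Lmo3 at -0.68 ± 0.15. Col11a1 (-0.32 ± 0.13, adjusted p = 0.233, edgeR) and the kainate subunit Grik1 (-0.36 ± 0.11), both called lower against all remaining Sox6 nuclei, were not called here. The difference between these comparisons was not tested. Tacr3, the neurokinin receptor, was at 0.650 and 0.755 against 1.30 and 1.41 (-0.96 ± 0.20, adjusted p = 0.000224), whereas against all remaining Sox6 nuclei it gave -0.32 ± 0.21 (adjusted p = 0.718).

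The third comparison set members beside nuclei with Tmem163 and no Sox6 UMI, with the other conditions met. Asic2 was at 12 and 11 UMIs per 10000 UMIs in the 110 male and 68 female members used and at 13.1 and 10.7 in as many matched nuclei (log2 fold change -0.03 ± 0.08, adjusted p = 0.973, edgeR). Gabrg3 gave 0.07 ± 0.11 (adjusted p = 0.948) and Bcl11b -0.06 ± 0.34 (adjusted p = 0.977). The 95% intervals of the fit, -0.18 to 0.13 for Asic2, -0.16 to 0.29 for Gabrg3 and -0.73 to 0.61 for Bcl11b, give the differences that these sums leave room for. In the male library the Tmem163 nuclei without Sox6 held more oligodendrocyte RNA (3.32 summed UMIs per 10000 UMIs), against 0.545 in the female library, and its part in this comparison was not tested. Of 5166 genes, 59 were higher (1.14%) and 41 lower (0.794%), 99 of the 100 with the same sign in each library. DESeq2 called 0 and 0, with 21 and 14 genes at an unadjusted p under 0.05, and edgeR without the block also called 0 and 0, with 138 and 139 genes at that level. Hs6st3 was here higher in members, at 4.07 and 2.79 against 2.53 and 1.89 (0.67 ± 0.17, adjusted p = 0.00481), and so was Kcnj6, a GIRK channel subunit of the dopamine autoreceptor pathway (0.43 ± 0.08). Among members with at least 2 Tmem163 UMIs, Hs6st3 turned to -0.40 (adjusted p = 0.893) and Asic2 gave 0.89 (adjusted p = 0.269). Il1rapl2, a synaptic adhesion molecule, was between the other 2 sets: 14.7 and 17.5 in members against 21.7 and 23.2 in Tmem163 nuclei without Sox6 (-0.47 ± 0.06), and higher in members than in the remaining Sox6 nuclei (0.86 ± 0.07). Adam12, Sntb1 and the NMDA receptor subunit Grin2a, which were higher in members than in the remaining Sox6 nuclei, were likewise lower in members than in Tmem163 nuclei without Sox6. Adam12 was at 0.558 and 0.582 UMIs per 10000 UMIs in members against 1.01 and 1.64 (-1.11 ± 0.29, adjusted p = 0.0119, edgeR). Sntb1 was at 0.904 and 0.873 against 1.68 in each library (-0.88 ± 0.25, adjusted p = 0.0217), and Grin2a at 10.0 and 11 against 13.7 and 15.1 (-0.43 ± 0.08). Kcnab1, a beta subunit of potassium channels, was lower in members, at 0.532 and 0.374 against 1.76 and 1.39 (-1.74 ± 0.29, adjusted p = 7.15e-07). Shisa6, an AMPA receptor partner, and Sorcs3, a sorting receptor, were also lower, at -1.68 ± 0.29 and -1.52 ± 0.25. Ptpn5, a striatum-enriched phosphatase, was higher, at 0.79 ± 0.17.

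**Figure D3:**
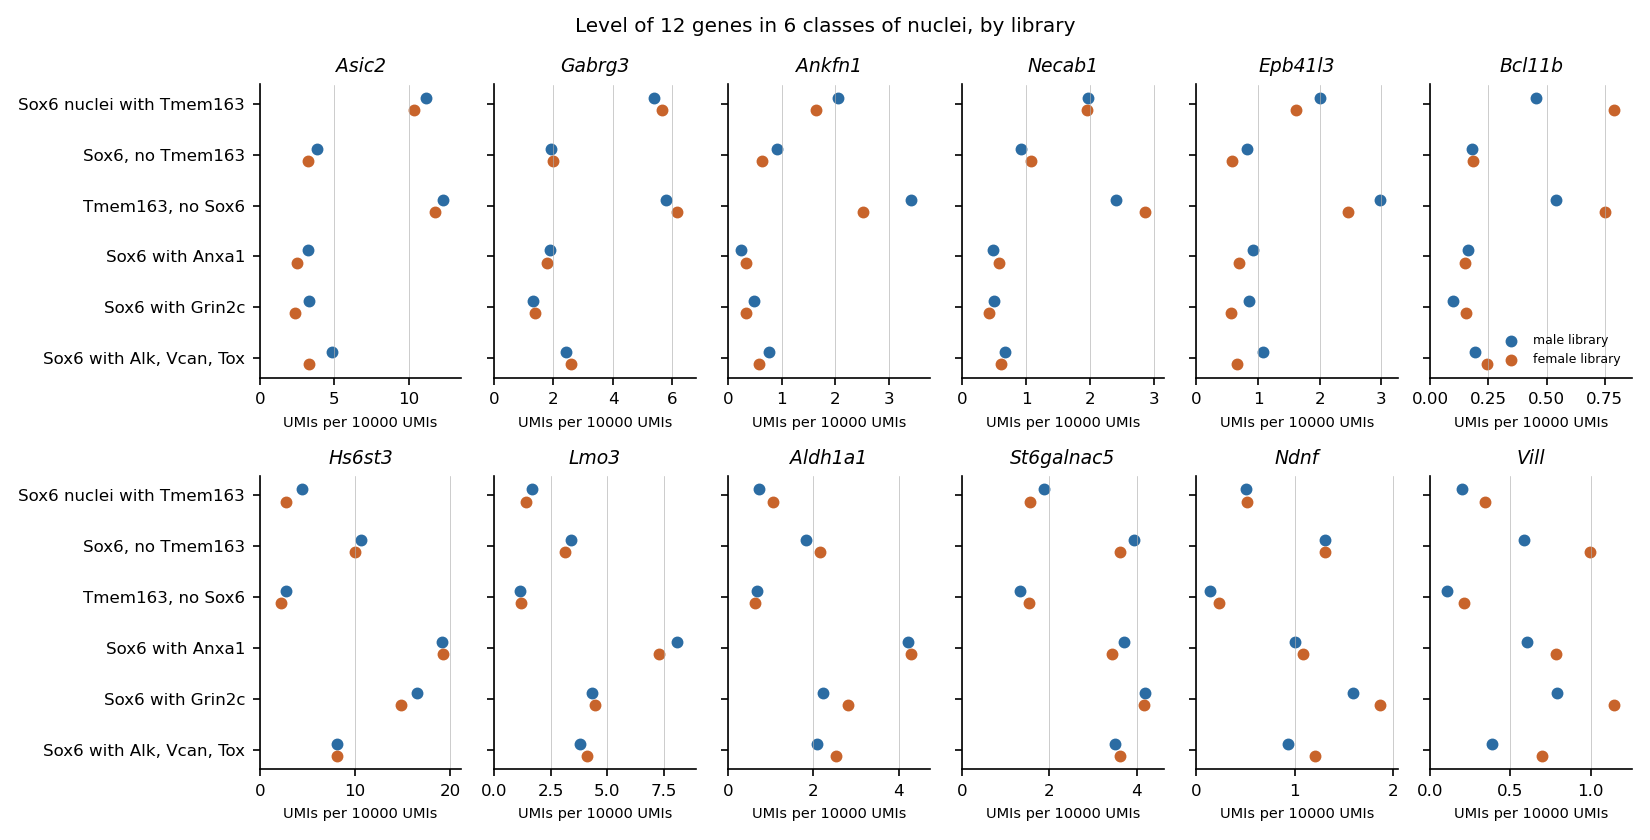
UMIs per 10000 UMIs (x axes, from 0, a scale of its own for each gene) of 12 genes in 6 classes of nuclei (y axis), 1 point for each library and no depth matching; the classes with Anxa1, Grin2c or Alk, Vcan and Tox overlap. Asic2 was at 11.2 and 10.4 in Sox6 nuclei with Tmem163, 12.3 and 11.8 in Tmem163 nuclei without Sox6 and 4.85 or less in the other 4 classes, whereas Hs6st3 was highest with Anxa1 (19.2 and 19.3) and lowest without Sox6 (2.72 and 2.27).

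The levels of other Sox6 classes, none matched for depth, show where members stood among Sox6 nuclei. Gabrg3 was at 1.89 and 1.79 UMIs per 10000 UMIs in Sox6 nuclei with Anxa1, 1.31 and 1.38 with Grin2c and 2.42 and 2.58 with at least 2 UMIs of Alk, Vcan and Tox, against 5.38 and 5.66 in members. Members were lowest of the 4 Sox6 classes in Lmo3, at 1.69 and 1.41 against 8.09 and 7.30 with Anxa1, 4.32 and 4.44 with Grin2c and 3.82 and 4.10 with Alk, Vcan and Tox. For Aldh1a1 the order was the same, from 0.725 and 1.06 in members to 4.22 and 4.30 with Anxa1. Col11a1 was at 2.30 and 2.78 in members and 6.41 and 8.58 with Alk, Vcan and Tox. Nuclei just outside the rule, with both genes and 2 UMIs of Alk, Vcan and Tox (21 male and 31 female), had Asic2 at 5.95 and 8.53 and Hs6st3 at 7.31 and 2.84. Members just inside it, with 1 such UMI (53 and 24 nuclei), had Asic2 at 11.3 and 8.64 and Hs6st3 at 4.48 and 2.82.

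Counts of called genes per list stand beside 1.16% of all tested genes higher and 0.925% lower against the remaining Sox6 nuclei. Of 33 tested glutamate and GABA receptor genes, 5 rose and 1 fell against the remaining Sox6 nuclei: Gabrg3, Grin2a (0.63 ± 0.07), Grid1 (0.39 ± 0.09) and Grm5 were among those that rose, and the kainate subunit Grik1 fell (-0.77 ± 0.10). Their median log2 fold change was 0.10 beside 0.00 over all genes. Of 21 dopaminergic transcription factors, Ebf3 (0.97 ± 0.12), Ebf2 and Lmx1a (0.78 ± 0.21) rose and Lmo3 and Ebf1 fell, with a median of -0.11. Of the Ebf family, Ebf1 and Ebf2 thus moved in opposite directions: Ebf1 was at 0.562 and 0.446 UMIs per 10000 UMIs in members against 1.21 and 1.19, and Ebf2 at 0.490 and 0.378 against 0.130 and 0.116. Of the 16 genes known to split Sox6 dopamine neurons, Arhgap28, a GTPase activating protein, and the netrin receptor Unc5d (1.02 ± 0.13) rose, and Vill, Aldh1a1, Lmo3, Ndnf and Col25a1 fell, with a median of -0.36; this list was chosen on these nuclei, and its direction is not independent evidence. Satb1, a chromatin organizer of that list, did not pass against the remaining Sox6 nuclei and was higher against Tmem163 nuclei without Sox6 (0.79 ± 0.17).

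**Figure D4:**
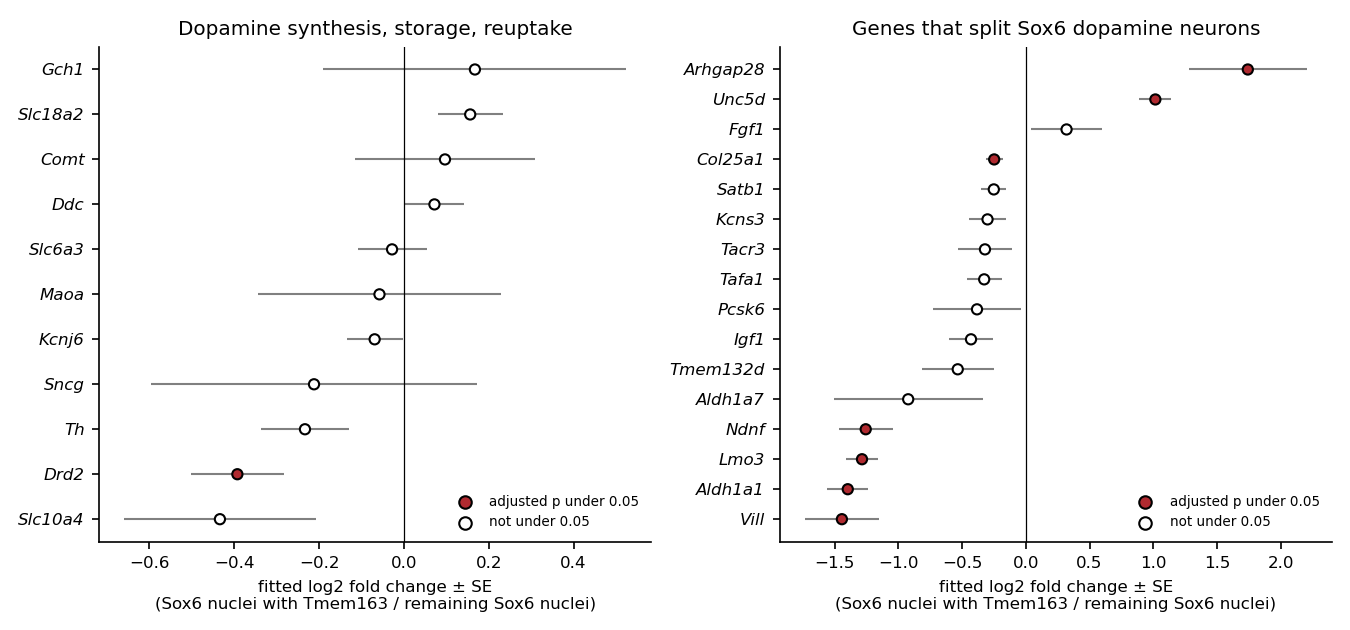
Fitted log2 fold change with its SE (x axis) of members over depth-matched remaining Sox6 nuclei for the tested genes (y axis) of 2 lists, with filled points at an adjusted p under 0.05 (edgeR). On the left Drd2 alone of 11 genes is filled, at -0.39; on the right 7 of 16 are, from Vill at -1.44 to Arhgap28 at 1.74.

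Of 47 tested channels of pacemaking and firing, 4 rose and 3 fell, beside 1.16% of all genes tested higher and 0.925% lower. Kcnip4, an auxiliary subunit of A-type potassium channels, was at 82.6 and 68.7 UMIs per 10000 UMIs in members and 48.4 and 49.2 in the remaining Sox6 nuclei (0.63 ± 0.05). Fgf14, a sodium channel partner, was at 27.5 and 27.4 against 19.9 and 18.8 (0.49 ± 0.06), and Cacna2d3 and Scn1a rose by 0.41 ± 0.08 and 0.46 ± 0.13. The small-conductance channel Kcnn3 fell by 0.32 ± 0.08, mostly in the male library (-0.48 against -0.05). Kcnip4 was lower in members than in Tmem163 nuclei without Sox6, at 88.1 and 69.5 against 89.8 and 105, a difference carried by the female library (-0.27 ± 0.04). Of 18 tested genes of zinc transport and the metallothioneins, the group that shares the function of Tmem163, 0 rose and 0 fell in edgeR. Their median was 0.13, and 0 had an unadjusted p under 0.05. The count of calls lies near the share over all genes, so nothing is read from it. Of 13 tested against Sox6 nuclei without Tmem163 only Slc30a5 had an unadjusted p under 0.05 (0.0307, edgeR), and of 8 tested against Tmem163 nuclei without Sox6 0 did.

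Guidance and adhesion genes moved in both directions. The counts per list here also stand beside 1.16% of all genes tested higher and 0.925% lower. Of 33 axon guidance genes, 7 rose and 5 fell. The ephrin Efna5 was at 2.18 and 3.78 UMIs per 10000 UMIs against 1.52 and 1.89 (0.73 ± 0.12), and Sema5b and Sema6a rose by 1.03 ± 0.21 and 1.05 ± 0.32. The ephrin receptor Epha4 was at 1.07 and 0.892 against 1.60 and 1.92 (-0.77 ± 0.16). Of 62 adhesion and synapse organizer genes, 12 rose and 12 fell, with a median of 0.03: Il1rapl2 was at 13.2 and 16.2 against 7.97 and 7.89, and Lrrtm4, a postsynaptic organizer, at 12.1 and 8.92 against 18 and 17.8 (-0.74 ± 0.07). Cntnap5b, a contactin-associated protein, rose by 0.75 ± 0.09. Of 21 matrix and proteoglycan genes, Sulf1 and Ndst3, which sulfates heparan chains (0.70 ± 0.19), rose and Hs6st3, Col11a1 and Col25a1 fell. Against Sox6 nuclei without Tmem163 the related sulfotransferases Hs6st2, with 14 and 10 UMIs against 10 and 4 (1.75 ± 0.50), and Ndst4 (0.99 ± 0.29) rose as well. Gfra1, the GDNF co-receptor, was at 4.68 and 6.21 against 2.87 and 3.06 (0.83 ± 0.09), and of 19 growth factor genes it alone rose and Nrg1 alone fell, by 0.17 ± 0.05. Of 37 vesicle release genes 1 rose, Stxbp5l (0.59 ± 0.14), and 2 fell, Syt7 (-0.37 ± 0.10) and Rab3c (-0.29 ± 0.08). Where 1 gene of a list was called, the values are those of that gene, and nothing is read from the list's count. Necab1 was the only gene called of 13 calcium-binding genes, Chrna5 of 18 nicotinic, muscarinic and peptide receptors, and Sulf1 of 9 genes of Calb1 and ventral tegmental dopamine neurons. Of 15 genes of inherited Parkinson disease 0 passed in edgeR, and 0 had an unadjusted p under 0.05. That count lies near the 1.16% and 0.925% of all genes tested, so nothing is read from it about the list. Only 1 of 13 immediate early genes was abundant enough to test, and it did not pass.

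Members had more members among their nearest neighbours than their share of the set when the 8 genes of the rule were left out, though most neighbours were depth-matched remaining Sox6 nuclei; Tmem163 nuclei without Sox6 were not in this set. With the members and matched nuclei of each library placed by 30 principal components of other genes, 29.7% of the 20 nearest neighbours of male members and 25.3% of those of female members were members, in a set where members were 16.6% and 16.5%. Around the matched remaining Sox6 nuclei the share was 12.4% and 11.7%. Clustering all kept nuclei, again without the rule's genes, gave 11 clusters. Cluster 4 held 58 of 132 male members (43.9%) and 38 of 76 female members (50%), against 11.5% and 11.9% of all Sox6 nuclei. Its leading genes were Bcl11b, Asic2, Adam12, Gabrg3, Arhgap28, Ccdc192, Postn, Kcnk13, Ebf2 and Ankfn1, and it is left unnamed. At 1000 UMIs, 9.37% and 10.6% of all its nuclei had a Tmem163 UMI and 19.9% and 19.1% a Sox6 UMI. The Tmem163 share was 8.63% and 11.2% in cluster 7 and below that of cluster 4 in every other cluster. The Sox6 share was highest in clusters 2 (49.4% and 52.3%) and 3 (47.2% and 47.8%), so cluster 4 was not among the clusters richest in Sox6. Cluster 6, led by Unc5d, Sema5b and Stard13, held 12 and 10 members. Cluster 7, whose Th and Slc6a3 levels were low, held 18 male and 4 female members, and cluster 11, with Mbp among its leading genes, held 5 and 3. Without the members and matched nuclei of clusters 7, 10 and 11, Asic2 gave 1.94 and Hs6st3 -1.77 against the remaining Sox6 nuclei, where 118 genes were higher and 99 lower. Against Sox6 nuclei without Tmem163 51 were higher and 27 lower, with the female comparison set reduced from 152 to 67 nuclei.

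**Figure D5:**
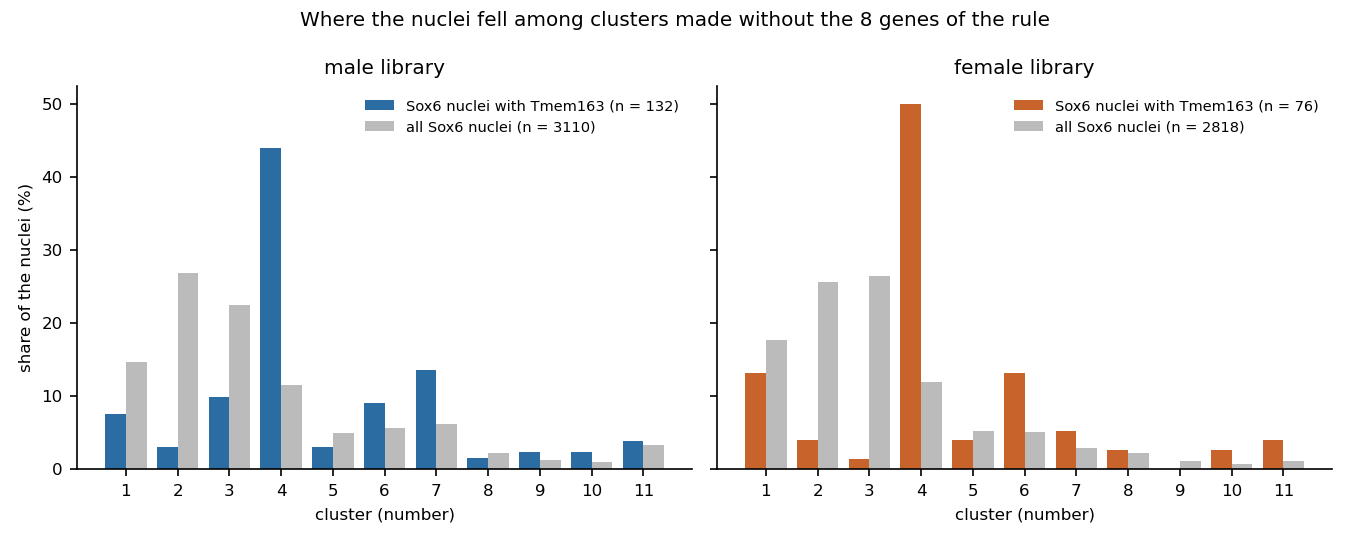
Share of nuclei (y axis, percent) in each of 11 clusters (x axis) for Sox6 nuclei with Tmem163 (colour) and all Sox6 nuclei (grey) in the male (left) and female (right) library. Cluster 4 held 43.9% and 50% of members against 11.5% and 11.9% of Sox6 nuclei, and cluster 2 held 3.03% and 3.95% of members against 26.8% and 25.6%.

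The values within members are descriptions. Asic2 took part in the clustering and leads cluster 4, so its difference between members in and outside that cluster follows from the clustering. The 58 and 38 members in cluster 4 had Asic2 at 14.2 and 15.5 UMIs per 10000 UMIs, the 74 and 38 members outside it at 8.81 and 5.06, and the 300 and 297 other Sox6 nuclei of that cluster at 11.4 and 9.27. Members outside cluster 4 thus still lay above the 3.86 and 3.25 of Sox6 nuclei without Tmem163. Hs6st3 was at 3.02 and 2.28 in members of the cluster and 5.52 and 3.23 outside it, and at 10.6 and 10.0 in Sox6 nuclei without Tmem163. Tacr3 was at 0.935 and 1.55 in members outside the cluster and at 0.290 and 0 in those within it. Members with 1 Sox6 UMI had Asic2 at 15.1 and 12.9 and Hs6st3 at 3.41 and 1.41, and members with at least 2 Sox6 UMIs had Asic2 at 8.44 and 7.76 and Hs6st3 at 5.12 and 4.12. This split uses a gene of the rule and was not tested, and the members with 1 Sox6 UMI were shallower, with a median of 3130 and 3488 UMIs per nucleus against 4369.5 and 3935. The 27 male and 18 female members with an Aldh1a1 UMI had Lmo3 at 3.90 and 3.00, and those without had Lmo3 at 1.03 and 0.767. Asic2 was at 11.8 and 8.29 in members with Aldh1a1 and 11 and 11.2 in those without. With the rule read from single UMIs, nuclei that lost a Sox6 or Tmem163 molecule in capture cannot be told apart from nuclei that never held it.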

How the data were processed

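The 2 single-nucleus libraries (10x Genomics 3' chemistry), 1 per sex, were analysed as replicates of 1 group. The authors made the deposited UMI counts per gene and nucleus with Cell Ranger 6.0.0 on mm10 with intronic reads counted, and the submitters' notes also name Seurat 4.0.2. The counts were used as deposited. Intronic counting favours long genes, so levels are compared within a gene only. The matrices held 6594 and 5557 nuclei, and a minimum of 500 features left 6556 and 5509.

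The members, gene lists and tests were chosen with earlier results of these data known. The 8 genes of the rule were left out of every fit, neighbour search and clustering. Comparison nuclei were matched within a library in bins of 0.25 log2 units of UMIs. Summed UMIs were fitted with edgeR 4.0.16 (TMM, filterByExpr, quasi-likelihood test, library as a block, Benjamini-Hochberg adjustment over all genes tested, threshold 0.05); DESeq2 1.42.0 was an alternative. The block pairs sums of the same library, which share its mice and capture. Named genes were the 15 largest rises and falls per comparison among called genes with at least 20 UMIs where higher, and up to 6 called genes per list; Kcnj6, Satb1, Col25a1, Grm5, Kcnn3, Slc30a5 and the leading genes of clusters were named after their values were seen. The fits were tested on simulated counts. Positions are from GENCODE vM21, promoters from RefSeq. Clustering used Scanpy 1.11.5. Results of some genes are not reported here.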

Additional observations from a re-analysis of the deposited data

How the results depend on the processing

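Genes called higher and lower in members against the remaining Sox6 nuclei (107 and 85) numbered 18 and 20 with DESeq2, which gave an adjusted p for 1848 genes, 58 and 119 with no filter on low counts, 13 and 8 with no replicate block, 90 and 51 without the highest doublet scores, 47 and 36 by Bonferroni correction, 4 and 0 with at least 2 Tmem163 UMIs, and 118 and 99 without clusters 7, 10 and 11. Against Sox6 nuclei without Tmem163 (109 and 77) the same settings gave 12 and 13 (DESeq2), 6 and 6 (no filter), 11 and 5 (no replicate block), 2 and 1 (doublet scores), 51 and 30 (Bonferroni), 4 and 0 (at least 2 Tmem163 UMIs), and 51 and 27 without clusters 7, 10 and 11, an alternative chosen after seeing the data. Comparison nuclei per member also fell from 2 to 1 in the male library without the highest doublet scores and in the female library without these clusters. Against Tmem163 nuclei without Sox6 (59 and 41), DESeq2, no filter, no replicate block and at least 2 Tmem163 UMIs each gave 0 and 0, Bonferroni 27 and 15, and no depth matching 110 and 128. Every call of DESeq2 and of the fit with no replicate block in the first and second comparison was also called with the block. Hs6st3 and Zfp804b turned from 0.67 and 1.1 to -0.40 and -0.32 against Tmem163 nuclei without Sox6 when at least 2 Tmem163 UMIs were required. No other named gene that was called reversed. Over all called genes still tested with at least 2 Tmem163 UMIs, direction was kept by 79 of 83 higher and 76 of 78 lower in the first comparison, 83 of 85 higher in the second and 44 of 48 higher in the third. The cause of these changes was not tested.

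The thinned share of Sox6 nuclei with Tmem163 rose from 2.31% to 4.47% (male) and 2.12% to 4.30% (female) at 2000 UMIs and to 9.0% and 9.19% unthinned, and the ratio to expectation from 0.660 to 0.944 and 0.563 to 0.854 unthinned. The neighbour share moved by less than the SD between libraries at each other number of neighbours and components. Leaving out a library left no residual spread, so that counts of calls could not be computed, and of 340 values 126 moved by more than the SD between libraries without replicate 1 (the male library) and 90 without replicate 2. Rare transcripts are limited by depth: at 3 or fewer UMIs in members, as for Chrna5, no fold is given.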
